A study of Mus musculus with 6 samples.

Results

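The 10 genes described here encode mucus products of the intestinal goblet cell and factors that regulate their making: Muc2, Zg16, Clca1, Fcgbp, Agr2, Tff3, Spink4, Spdef, Klf4 and Creb3l1. They were chosen by name, as 7 mucus products (Agr2, which folds mucin, counted among them) and 3 regulators, to set early factors against mature products. All 10 were found among the 24736 gene symbols of the deposited table. Each had a mean of at least 1 unit of TPM (transcripts scaled to the same total per library and corrected for gene length) over the libraries, so all 10 were among the 12268 genes tested. RNA sequencing was performed on EDTA-released crypts from the whole length of the gut of male mice aged 12 weeks, 3 wild type (WT) and 3 Mtg16-/-, untreated, with 1 library per mouse. Mtg16 is Cbfa2t3, a transcriptional co-repressor, and no Cre or restriction to a cell type is named for the knockout. The labels call the knockout CRISPR induced whereas the methods describe animals given by another laboratory, and which of these holds was not settled.

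Goblet cells arise from crypt progenitors in which Notch signaling is off and the transcription factor ATOH1 is active. Spdef, an ETS factor downstream of ATOH1, and Klf4, a zinc finger factor, act in goblet cell maturation, and Creb3l1 is a membrane-bound bZIP factor that is cleaved to reach the nucleus and serves secretory cells. The mature cell packs Muc2, the gel-forming mucin, into granules with Fcgbp, Zg16 and Clca1, and releases them as the mucus that keeps bacteria away from the epithelium. Tff3 is a small trefoil peptide of the mucus that aids epithelial repair, Spink4 is a Kazal-type peptide secreted by the same cells, and Agr2 is a disulfide isomerase of the endoplasmic reticulum on which Muc2 production depends.

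Libraries were first checked against their labels. Cbfa2t3 had a TPM of 3.67, 6.69 and 4.52 in WT and 4.62, 6.43 and 3.23 in Mtg16-/- (log2 fold change -0.06, standard error 0.27, limma adjusted p = 0.937). A TPM for the whole gene cannot show a missing exon, so the groups were not told apart by it and every direction below rests on the labels. Pearson's r between libraries, across genes, lay between 0.931 and 0.980. WT replicates 2 and 3 stood apart in genes of gastric surface mucous cells, picked after their values were seen. Gkn1, Gkn2, Tff1 and Muc5ac summed to 557 TPM in WT replicate 2 and to 99.8 TPM in WT replicate 3. All 4 were listed at 0 in the other 4 libraries. Tff2 and Muc6, picked likewise, were at 28.3 and 5.44 TPM in Mtg16-/- replicate 3. They were at 64.0 and 4.93 TPM in WT replicate 2 and at 10.4 and 1.2 TPM in WT replicate 3. Markers of enterocytes, the absorptive cells, summed to between 15719 and 43732 TPM in WT and between 8395 and 16166 TPM in Mtg16-/-, with WT replicate 1 the highest.

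RefSeq promoter windows on GRCm38.p6, from 250 bases before to 50 bases after the transcript start, were at hand for Agr2, Fcgbp, Klf4, Muc2 and Spdef, which is 5 of the 10 genes. Shown are the 3 windows that hold CAGCTG, one form of the E-box read by bHLH factors such as ATOH1. Muc2 and Fcgbp are shown also because their levels ran together, as given below. Capitals mark letters matched on either strand. The windows are chr7:141690090-141690389 on the plus strand for Muc2, chr7:28070986-28071285 on the plus strand for Fcgbp and chr4:55532426-55532725 on the minus strand for Klf4.
Muc2: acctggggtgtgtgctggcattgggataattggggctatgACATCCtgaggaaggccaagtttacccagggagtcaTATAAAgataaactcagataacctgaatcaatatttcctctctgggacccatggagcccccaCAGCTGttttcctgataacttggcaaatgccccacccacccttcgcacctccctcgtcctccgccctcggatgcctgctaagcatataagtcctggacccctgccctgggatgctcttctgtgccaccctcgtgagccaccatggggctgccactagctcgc
Fcgbp: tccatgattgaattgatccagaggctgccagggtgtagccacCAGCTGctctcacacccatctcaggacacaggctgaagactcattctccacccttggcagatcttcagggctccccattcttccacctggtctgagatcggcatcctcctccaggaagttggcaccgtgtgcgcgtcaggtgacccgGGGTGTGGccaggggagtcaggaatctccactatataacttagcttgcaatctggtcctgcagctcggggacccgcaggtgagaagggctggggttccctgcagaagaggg
Klf4: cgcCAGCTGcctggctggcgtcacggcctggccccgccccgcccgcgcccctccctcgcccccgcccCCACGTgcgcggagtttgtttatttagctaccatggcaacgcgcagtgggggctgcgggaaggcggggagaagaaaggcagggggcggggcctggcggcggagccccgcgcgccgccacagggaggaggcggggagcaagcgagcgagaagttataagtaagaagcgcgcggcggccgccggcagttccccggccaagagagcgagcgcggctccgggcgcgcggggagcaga

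The search covered 6 motifs, and shares are of 32851 RefSeq windows of the same length. The E-box CAGCTG was held by 16.3% of windows and the E-box form CAGATG by 17.2%. The core of SPDEF sites searched for was GGATGT, held by 11.1%. The core of KLF sites was GGGNGTGG, held by 17.6%. The core of CREB3L sites was CCACGT, held by 8.3%. The TATA box was read as TATAAA, held by 13.6%. In Muc2 the first letters lay at -210 for the reverse complement of GGATGT, at -174 for TATAAA and at -112 for CAGCTG, where -1 is the base just before the annotated start. In Fcgbp CAGCTG began at -208 and GGGNGTGG at -61. In Klf4 CAGCTG began at -247 and CCACGT at -183. No 2 matches overlapped. The windows of Agr2 and Spdef held none of the 6 sets of letters. The Spdef window, chr17:27728902-27729201 on the minus strand, lies inside the gene span, 27714446 to 27731003. Sequence beyond the outer end of that gene was therefore not searched. A match is a description of the sequence and not a bound site.

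Of the 10 genes, none passed an adjusted p under 0.1 in limma's test, which called 4 of 12268 genes (0.0326%) in all. At an unadjusted p under 0.05, 2 of the 10 were lower in Mtg16-/- (Zg16 and Clca1), where 8.05% of all tested genes were lower, and 0 of the 10 were higher, where 6.53% of all tested genes were. The same 2 genes had no overlap between the groups, lower in Mtg16-/-, as in 11.1% of all tested genes. None of the 10 was higher without overlap, as in 9.94%. Estimates were lower for 7 of the 10 and higher for 3. Their median log2 fold change was -0.42, with -0.43 for the products and -0.05 for the regulators, beside -0.03 for all tested genes. With 3 regulators that median is the value of Creb3l1, and Klf4 was at -0.47. Zg16 and Clca1 stayed under 0.05 with each library left out in turn, counts at this p that were added after the data were seen. Agr2 joined them without WT replicate 3 and Klf4 without Mtg16-/- replicate 1. Among the alternatives given at the end, array weights called Clca1, with 855 genes called in all. A block on the replicate number called Zg16 and Clca1, with 1201 genes called in all.

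**Figure D1:**
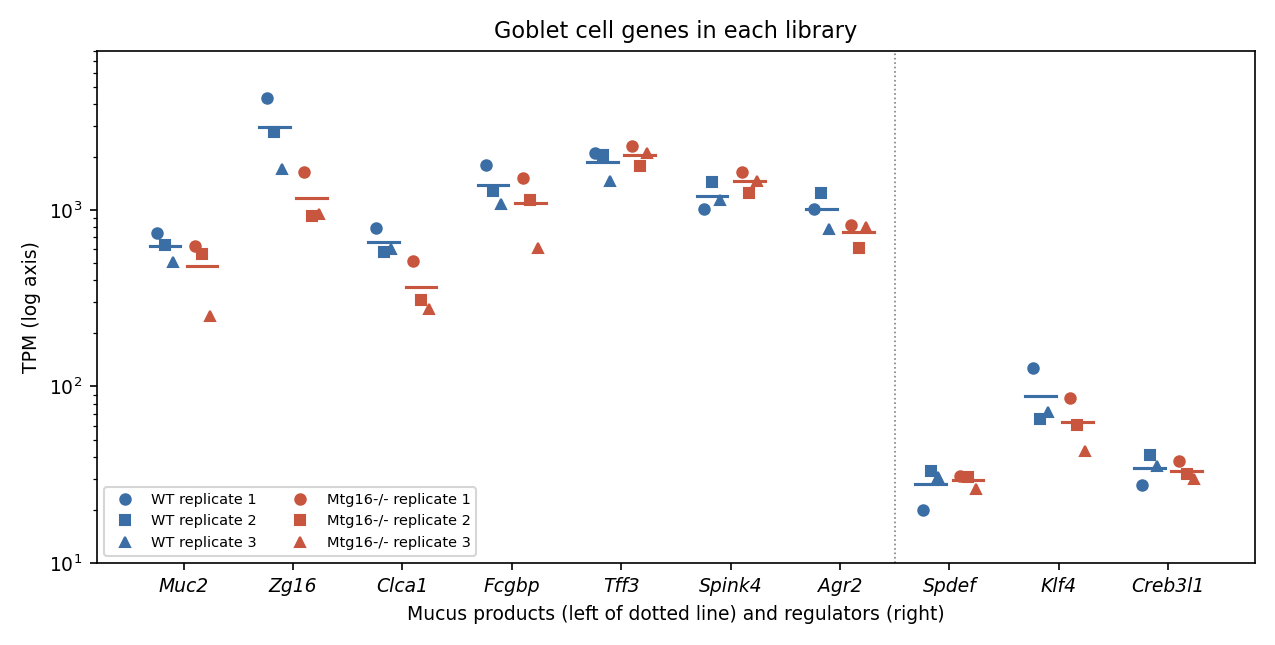
Points show the TPM (log axis) of each gene in each of the 6 libraries and short lines the group means, with WT in blue and Mtg16-/- in red. Zg16 and Clca1 are the genes whose groups are separate, and in Muc2 and Fcgbp Mtg16-/- replicate 3 lies lowest, at 249.9 and 607 TPM.

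Zg16, a lectin of the mucus that binds peptidoglycan of Gram-positive bacteria, showed the largest estimate among the 10 (chromosome 7, 127050156 to 127052675). It had a TPM of 4336, 2776 and 1707 in WT and of 1636, 925 and 949 in Mtg16-/-. Every Mtg16-/- library was below every WT library, although the lowest WT and the highest Mtg16-/- value were close. The means were 2939.7 ± 1322 (SD, n = 3) and 1169.9 ± 404 (SD, n = 3), which is 60.2% lower. The log2 fold change was -1.28 (standard error 0.37, 95% confidence interval -2.13 to -0.43, limma adjusted p = 0.263). Without 1 library at a time it lay between -1.62 and -0.95, with an adjusted p of 0.224 to 0.590. WT replicate 1, which held the most Zg16, also held the highest sum of enterocyte markers, and the part of this in the result was not tested. In bulk crypts fewer goblet cells and less RNA per goblet cell cannot be told apart, for Zg16 and for every gene below.

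Clca1, a secreted metalloprotease that processes the mucus (chromosome 3, 145004537 to 145032776), had a TPM of 794, 579.9 and 599.9 in WT and of 514, 308 and 275 in Mtg16-/-. The groups did not overlap, and Mtg16-/- replicate 1 was the nearest to WT. Mean TPM was 658 ± 118 in WT and 366 ± 129 in Mtg16-/- (SD, n = 3 each), which is 44.5% lower. On the log2 scale the difference was -0.89 (standard error 0.25, 95% confidence interval -1.47 to -0.31, limma adjusted p = 0.263), and it lay between -1.16 and -0.71 without 1 library at a time.

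Clca1 sits in a cluster of related genes on chromosome 3, and its paralogs were singled out after their values were seen. Clca3b (144822623 to 144849302) had a TPM of 491, 684 and 784 in WT and of 794, 953 and 669.7 in Mtg16-/-, with overlap (log2 fold change 0.31, standard error 0.22, limma adjusted p = 0.511). The ratio of Clca1 to Clca3b was 1.62, 0.847 and 0.765 in WT and 0.647, 0.323 and 0.411 in Mtg16-/-, so the groups were separate on this ratio. The log2 fold change was -0.33 for Clca3a1 and 0.15 for Clca3a2, and no difference between Clca1 and a paralog was tested. Reads of similar paralogs may have been divided among them by the quantification, so single values of this family are uncertain.

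Muc2, the gel-forming mucin (chromosome 7, 141690340 to 141754691), had a TPM of 737, 634 and 506 in WT and of 623, 566 and 249.9 in Mtg16-/-. Mtg16-/- replicates 1 and 2 lay inside the WT range and Mtg16-/- replicate 3 was below it. The means were 626 ± 116 (SD, n = 3) and 480 ± 201 (SD, n = 3), and the log2 fold change was -0.47 (standard error 0.34, 95% confidence interval -1.26 to 0.31, limma adjusted p = 0.526). Without Mtg16-/- replicate 3 it was -0.06. GENCODE marks the Muc2 locus of this build as fragmented, which may affect its level in every library.

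Fcgbp, a large protein that is cross-linked with Muc2 in mucus (chromosome 7, 28071236 to 28120864), was likewise highest in WT replicate 1. Its TPM was 1802, 1278 and 1078 in WT and 1525, 1141 and 607 in Mtg16-/-, again lowest in Mtg16-/- replicate 3. The log2 fold change was -0.41 (standard error 0.35, 95% confidence interval -1.21 to 0.39, limma adjusted p = 0.583), and -0.04 without that library. The ratio of Fcgbp to Muc2 was 2.45, 2.02 and 2.13 in WT and 2.45, 2.01 and 2.43 in Mtg16-/-. Its means, 2.20 ± 0.223 (SD, n = 3) and 2.30 ± 0.246 (SD, n = 3), differed by less than the spread between libraries. Mtg16-/- replicate 3 was thus low in both genes and not in their ratio.

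Tff3 and Spink4, the small peptides, had estimates on the other side of 0. Tff3 (chromosome 17, 31125306 to 31129611) had a TPM of 2108, 2063 and 1456 in WT and of 2319, 1778 and 2097 in Mtg16-/-, with overlap. The estimate for Tff3 was 0.15 on the log2 scale (standard error 0.21, 95% confidence interval -0.34 to 0.64, limma adjusted p = 0.755), but -0.02 without WT replicate 3 and -0.04 under quantile scaling. Spink4 (chromosome 4, 40920056 to 40931395) had a TPM of 1015, 1434 and 1137 in WT and of 1646, 1247 and 1470.2 in Mtg16-/-. The groups overlapped through Mtg16-/- replicate 2, and the log2 fold change was 0.29 (standard error 0.19, 95% confidence interval -0.16 to 0.74, limma adjusted p = 0.503). It was 0.18 without WT replicate 1 and 0.17 under quantile scaling.

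Agr2, the mucin-folding isomerase (chromosome 12, 35992925 to 36004081), had a TPM of 1010.1, 1245 and 781 in WT and of 826, 609 and 805 in Mtg16-/-. The groups overlapped because WT replicate 3 was lower than Mtg16-/- replicates 1 and 3. Agr2 had a log2 fold change of -0.43 (standard error 0.21, 95% confidence interval -0.92 to 0.07, limma adjusted p = 0.394). Its highest value was in WT replicate 2, the library with the most gastric mucous transcripts, and gastric mucous cells also make Agr2. Without that library the log2 fold change was -0.26. With WT replicate 1 as the only WT library, an arm of 1 chosen after the data were seen, it was -0.45, from which no conclusion was drawn. The part of gastric cells in the level of Agr2 was not tested.

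**Figure D2:**
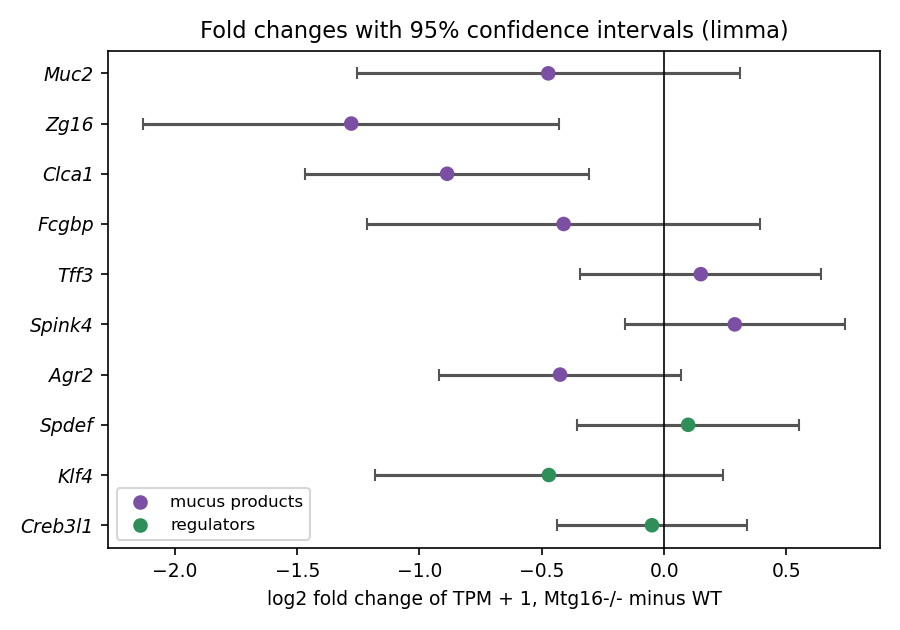
Points show the log2 fold change of TPM + 1 (Mtg16-/- minus WT) of each of the 10 genes and bars its 95% confidence interval from limma. The intervals of Zg16 and Clca1 lie below 0, those of the other 8 genes span 0, and none of the 10 passed the adjusted limit.

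The 3 regulators were measured at far lower levels than the products. Spdef (chromosome 17, 27714446 to 27731003) had a TPM of 19.96, 33.25 and 30.60 in WT and of 30.95, 30.85 and 26.35 in Mtg16-/-. All Mtg16-/- libraries lay within the WT range, whose lowest value was WT replicate 1. Spdef had a log2 fold change of 0.10 (standard error 0.20, 95% confidence interval -0.36 to 0.55, limma adjusted p = 0.835), and -0.12 without WT replicate 1, so its sign rested on that library.

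Creb3l1 (chromosome 2, 91982328 to 92024170) was likewise overlapping, with a TPM of 27.72, 40.62 and 35.27 in WT and of 37.61, 31.82 and 29.86 in Mtg16-/-. The estimate for Creb3l1 was -0.05 on the log2 scale (standard error 0.17, 95% confidence interval -0.44 to 0.34, limma adjusted p = 0.907), and it turned to 0.07 without WT replicate 2 and to 0.01 under quantile scaling. These intervals leave room for a difference of either sign in Spdef and in Creb3l1.

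Klf4 (chromosome 4, 55527137 to 55532475), the most abundant of the 3, had a TPM of 127, 65.7 and 71.8 in WT and of 85.6, 60.3 and 42.8 in Mtg16-/-. The highest value was in WT replicate 1, and Mtg16-/- replicate 1 lay above the other WT libraries. Klf4 had a log2 fold change of -0.47 (standard error 0.31, 95% confidence interval -1.18 to 0.24, limma adjusted p = 0.489), and -0.18 without WT replicate 1. Klf4 is also made by differentiated enterocytes, whose markers were highest in the same library, and the part of this in the value was not tested.

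To contrast products with regulators, the mean log2(TPM + 1) of the 3 regulators was subtracted from that of the 7 products in each library. The difference was 5.03, 4.78 and 4.45 in WT and 4.59, 4.36 and 4.43 in Mtg16-/-. Mtg16-/- replicate 1 lay above WT replicate 3, so the groups overlapped. The means were 4.75 ± 0.29 (SD, n = 3) and 4.46 ± 0.118 (SD, n = 3), a difference of -0.29 on the log2 scale, for which no test was made because the genes were chosen with results known. Without Zg16 and Clca1, a choice made after their values were seen, the difference was -0.03, and with the median in place of the mean it was -0.05. It was -0.15 without WT replicate 1 and -0.44 without WT replicate 3.

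The summed TPM of the 7 products was 11803, 10009 and 7264 in WT and 9087, 6575 and 6454 in Mtg16-/-, between 0.645% and 1.18% of a library. The sums overlapped between the groups. Without Zg16 the sums were 7467, 7233 and 5557 in WT and 7452, 5649.9 and 5505 in Mtg16-/-, with means of 6752 ± 1042 and 6202 ± 1085 (SD, n = 3 each).

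The makeup of these transcripts was then read in each library, without a test. Zg16 made up 36.7%, 27.7% and 23.5% of the summed product TPM in WT and 18.0%, 14.1% and 14.7% in Mtg16-/-. Tff3 made up 17.9%, 20.6% and 20.0% in WT and 25.5%, 27.0% and 32.5% in Mtg16-/-. Spink4 made up 8.60%, 14.3% and 15.6% in WT and 18.1%, 19.0% and 22.8% in Mtg16-/-. The groups were separate for these 3 genes and for Clca1, with means of 6.93% and 4.87%, and overlapped for Muc2, Fcgbp and Agr2. Such shares were not computed for all tested genes, so no background stands beside these separations. In TPM itself, Tff3 and Spink4 overlapped between the groups. Shares add up to the whole, so a lower share of Zg16 raises the others. With Zg16 left out of the sum, Tff3 made up 28.2%, 28.5% and 26.2% in WT and 31.1%, 31.5% and 38.1% in Mtg16-/-, still separate.

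**Figure D3:**
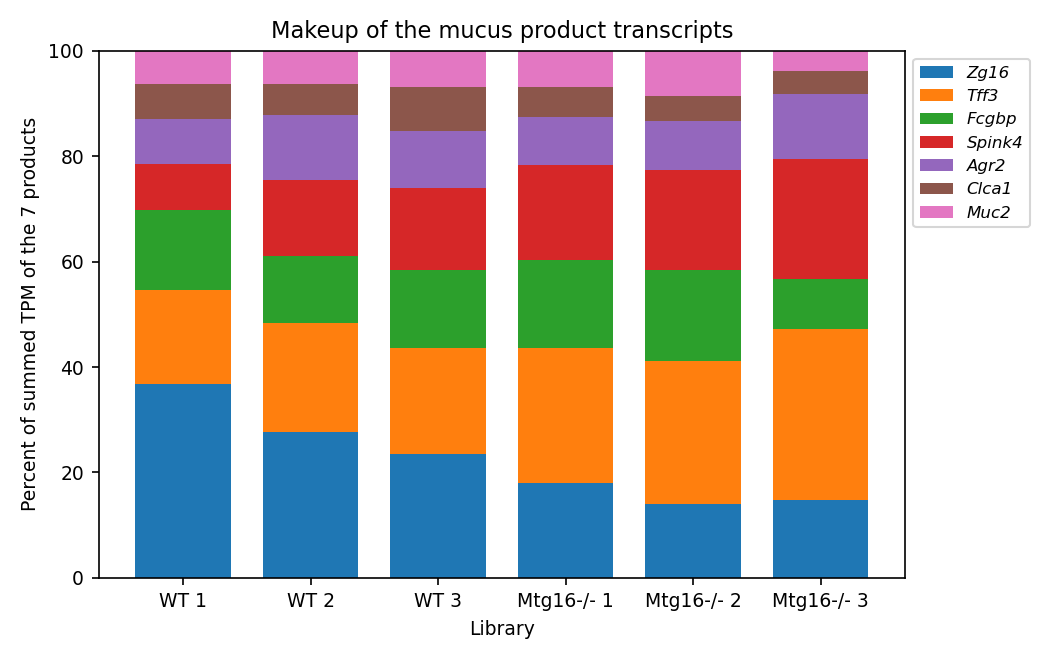
Each bar divides the summed TPM of the 7 mucus products in 1 library into the percent held by each gene. The Zg16 segment lies between 23.5% and 36.7% in WT and between 14.1% and 18.0% in Mtg16-/-, while Tff3 holds between 25.5% and 32.5% in Mtg16-/-.

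In WT the order by mean TPM was Zg16, Tff3, Fcgbp, Spink4, Agr2, Clca1, Muc2, Klf4, Creb3l1 and Spdef. From Zg16 down to Muc2 each neighbour overlapped the next in its range over libraries, as did Creb3l1 and Spdef. Muc2 and Klf4, and Klf4 and Creb3l1, did not. In Mtg16-/- the order was Tff3, Spink4, Zg16, Fcgbp, Agr2, Muc2, Clca1, Klf4, Creb3l1 and Spdef, and there Tff3 stood clear of Spink4. The ratio of Zg16 to Tff3 was 2.06, 1.35 and 1.17 in WT and 0.705, 0.520 and 0.453 in Mtg16-/-. Zg16 was therefore the more abundant of the pair in 3 of 3 WT libraries and the less abundant in 3 of 3 Mtg16-/- libraries, a comparison picked after the values were seen.

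Relative to Muc2, the other products overlapped between the groups. Zg16 was at 5.88, 4.38 and 3.37 times Muc2 in WT and at 2.63, 1.63 and 3.80 times in Mtg16-/-, where the last value belongs to the library low in Muc2. Tff3 was at 2.86, 3.25 and 2.88 times Muc2 in WT and at 3.72, 3.14 and 8.39 times in Mtg16-/-. The high value of Mtg16-/- replicate 3 recurred for Spink4, at 5.88, and for Agr2, at 3.22.

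**Figure D4:**
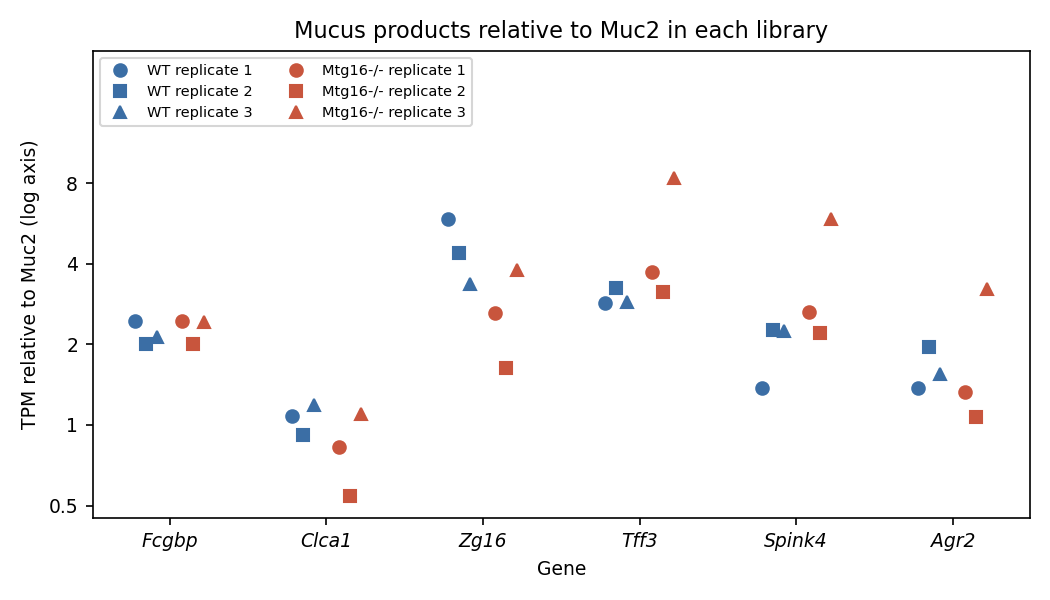
Points show the TPM of 6 products divided by that of Muc2 in the same library (log axis), with WT in blue and Mtg16-/- in red. Fcgbp stays between 2.01 and 2.45 in all 6 libraries, whereas Tff3 reaches 8.39 in Mtg16-/- replicate 3.

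Some genes ran closest to these profiles over the 6 libraries, by the root mean square difference of centred log2(TPM + 1) among 10061 genes. For Muc2 these were Cnn2 (0.121), C2 (0.124) and Lrp1 (0.127), for Zg16 Pfkfb3 (0.239), Rcan1 (0.241) and Angptl4 (0.247), and for Spdef Zfp777 (0.0271), Csnk1e (0.0416) and Zbtb8a (0.0558). Fcgbp was not among the 3 nearest to Muc2. With 6 libraries such likeness is a description only.

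Around the 10 genes, the machinery of the goblet cell was read from wider lists. The genes named are among the 3 of smallest p or were picked after their values were seen. Of 34 tested other goblet cell genes, none was called by limma, and the median log2 fold change was 0.02. At an unadjusted p under 0.05, 4 were higher and 3 lower, beside 6.53% and 8.05% of all tested genes. Ang4, an antimicrobial ribonuclease shared with Paneth cells, had a TPM of 223, 448 and 556 in WT and of 897, 715 and 803 in Mtg16-/- (log2 fold change 1.07, standard error 0.31, limma adjusted p = 0.263). The chemokine gene Ccl9 had a log2 fold change of 0.54 and Oit1 one of -0.58 (limma adjusted p = 0.272 for each). The other 2 lower genes were Tff1 and Muc5ac, the gastric transcripts listed at 0 in 4 libraries, and both overlapped between the groups. Tff2, the trefoil of deeper gastric glands, was picked with them. It was listed at 0, 64.0 and 10.4 TPM in WT and at 0, 0.83 and 28.3 TPM in Mtg16-/-. Muc6, picked likewise, was at 0, 4.93 and 1.2 TPM in WT and at 0.03, 0.37 and 5.44 TPM in Mtg16-/-.

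Mucin is folded in the endoplasmic reticulum. Of 34 tested genes of folding and the early secretory pathway, 27 had a lower estimate and 7 a higher one. Their median log2 fold change was -0.28 beside -0.03 for all tested genes. At an unadjusted p under 0.05, 14 were lower and 0 higher, where 8.05% of all tested genes were lower. Without overlap 17 were lower, as were 11.1% of all tested genes. Their summed TPM was between 5404 and 5812 in WT and between 3915 and 4245 in Mtg16-/-, with no overlap. Creld2, a chaperone-like protein of the endoplasmic reticulum induced by unfolded protein, fell from a TPM of 104, 105 and 132 to 50.1, 50.4 and 51.0 (log2 fold change -1.15, standard error 0.13, limma adjusted p = 0.0894), and it was the 1 gene of the list that was called. The list held no called gene without a filter, under median-ratio or quantile scaling, without the trend, at an adjusted p under 0.05, or with any single library other than WT replicate 1 left out. It held 3 at a mean TPM of at least 5, 3 under robust moderation, 13 under array weights, 13 with the replicate block and 4 without WT replicate 1, all lower. Sdf2l1 and Dnajb11, partners of the chaperone BiP, had log2 fold changes of -0.97 and -0.83 (limma adjusted p = 0.104 for each), and their groups did not overlap. With each library left out in turn between 11 and 15 genes of the list were lower at that p. With the Defa genes, the Paneth cell defensins, removed and TPM rescaled, 13 were lower and none was called. These genes serve every secretory cell, Paneth cells included, so the list does not single out goblet cells. Ern2 and Creb3l4, picked from the list after their values were seen, had log2 fold changes of -0.03 and 0.18, both with overlap.

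Mucin receives its sugars in the Golgi apparatus. Of 33 tested glycosylation genes, 7 were lower and 1 was higher at an unadjusted p under 0.05. The shares of all tested genes were 8.05% and 6.53%. None of the 33 was called by limma, and their median was -0.17. Chst4, a sulfotransferase that acts on N-acetylglucosamine, had a TPM of 26.5, 18.8 and 23.7 in WT and of 12.0, 9.77 and 11.1 in Mtg16-/-, with no overlap (log2 fold change -0.99, standard error 0.16, limma adjusted p = 0.121). St3gal1, a sialyltransferase of core O-glycans, had a log2 fold change of -0.99 (limma adjusted p = 0.254) and was lower without overlap.

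Of 12 tested genes of granule release, 2 were higher and 1 was lower at an unadjusted p under 0.05, with none called by limma. All tested genes had shares of 6.53% and 8.05%. Marcks, a kinase substrate of the granule release machinery, had a log2 fold change of 0.90 (limma adjusted p = 0.255), Rab3d, a granule GTPase, one of 0.38 (limma adjusted p = 0.340) and Anxa2, a membrane-binding annexin, one of -0.79 (limma adjusted p = 0.281). Among transmembrane mucins, which coat mainly enterocytes, 5 of 9 listed symbols were in the table and 2 were tested. Muc4 had a log2 fold change of -0.99 with no overlap (limma adjusted p = 0.263) and Muc13 one of -0.55 with overlap (limma adjusted p = 0.401).

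Of 14 transcription factors and Notch genes listed around the secretory lineage, 3 were higher and 1 was lower at an unadjusted p under 0.05. The shares of all tested genes were 6.53% and 8.05%. None of the 14 was called by limma, and their median was 0.03. Atoh1, upstream of Spdef, had a TPM of 19.1, 23.2 and 18.0 in WT and of 17.3, 18.2 and 15.2 in Mtg16-/-, with overlap (log2 fold change -0.23, standard error 0.14, limma adjusted p = 0.466). Foxa1 and Sox9 had log2 fold changes of 0.52 and 0.85 and Gata4 one of -0.42 (limma adjusted p = 0.247, 0.263 and 0.263), each without overlap. The other higher gene was Hes1, an effector of active Notch, named after its value was seen. Its log2 fold change was 0.43, with overlap (limma adjusted p = 0.321). The paper counts Sox9 among Wnt targets, and Gata4 was also counted as a proximal gene. The counts of this list were therefore not read as a measure of the secretory lineage. The Notch-off lineages beside goblet cells had higher estimates: 11 of 16 Paneth cell markers and 9 of 14 enteroendocrine markers were higher at an unadjusted p under 0.05, with medians of 0.99 and 0.56, beside 6.53% of all tested genes and 0 of the 10 mucus genes. In the Paneth cell list 1 gene was lower at that p, Guca2b, which encodes uroguanylin and was named after its value was seen (log2 fold change -1.11, limma adjusted p = 0.286). Its TPM was 1953, 720 and 880 in WT and 694, 387 and 456 in Mtg16-/-. It was highest in WT replicate 1, as were the enterocyte markers, so its place as a Paneth cell marker is uncertain. Ang4 was counted both in this list and among the other goblet cell genes. None of the enteroendocrine markers was lower at that p. Whether the Paneth and enteroendocrine lineages differ from the mucus genes in their response was not tested.

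**Figure D5:**
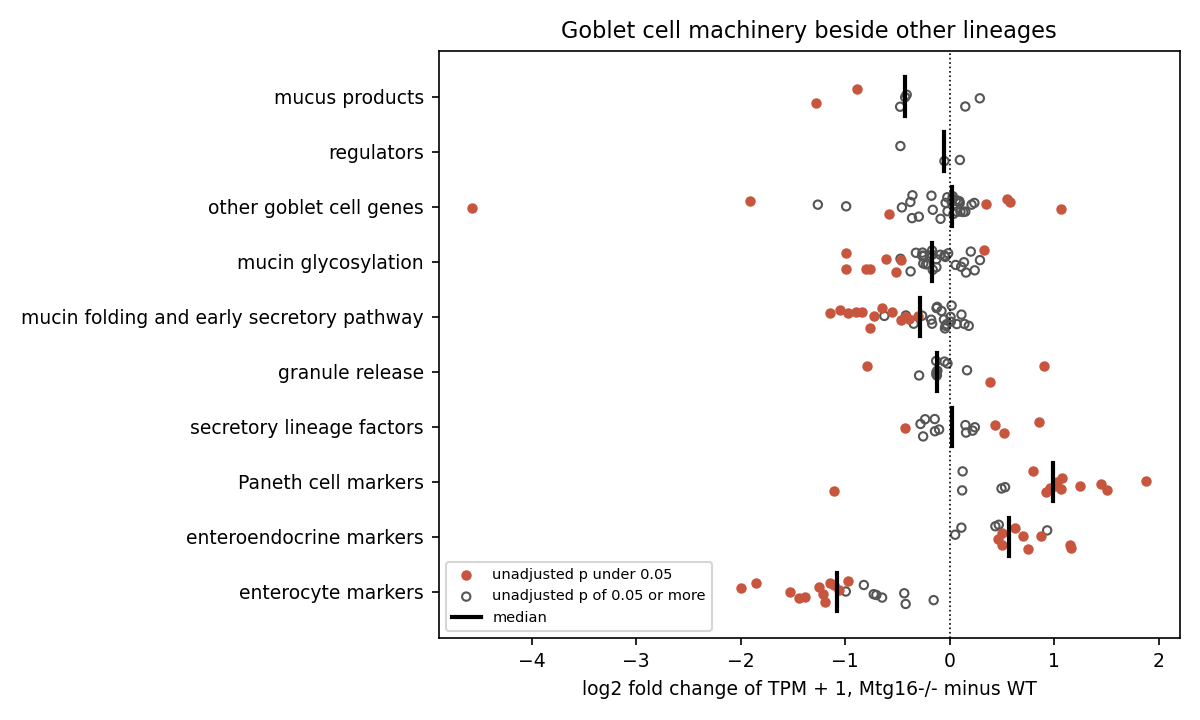
Each point is the log2 fold change of TPM + 1 (Mtg16-/- minus WT) of 1 tested gene, by list, with filled points at an unadjusted p under 0.05 and bars at the median of the list. Mucus products have a median of -0.43 and the 3 regulators one of -0.05, with Klf4 at -0.47. Paneth cell and enteroendocrine markers lie mostly above 0 and enterocyte markers (median -1.08) below 0. The points at the far left of the other goblet cell genes are Tff1 and Muc5ac.

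Markers of other cells and gut regions were read beside Zg16 and Clca1. Of 20 enterocyte markers, 12 were lower at an unadjusted p under 0.05, and 8 were lower without overlap. Over all tested genes 8.05% were lower and 6.53% higher at that p, and 11.1% were lower without overlap. Of 9 genes that mark the proximal part of the small intestine, 6 were lower at that p. The 9 summed to between 2138 and 6427 TPM in WT and between 736 and 1551 TPM in Mtg16-/-. Fabp1 alone held 5065 TPM of this in WT replicate 1. Fabp1 and Lct are also counted as enterocyte markers and Gata4 as a secretory lineage factor, each among the 6 lower genes. The other lower genes were Pdx1, Onecut2 and Adh6a, all named after their values were seen. Of 12 genes of the colon, where goblet cells are most frequent, 9 were tested, 2 of them higher and 1 lower at that p. The higher genes were Cdx2 and Mptx1 and the lower one Car4, named after their values were seen. Mptx1 was also counted among the Paneth cell markers, and Cdx2 was at 137 TPM or more in every library. These counts were therefore not read as a measure of colon. The sums of the colon genes overlapped, between 478 and 635 TPM in WT and between 495 and 559 TPM in Mtg16-/-. Immune cell markers summed to between 170.4 and 438 TPM in WT and between 97.5 and 238 TPM in Mtg16-/-, highest in WT replicate 1 and lowest in Mtg16-/- replicate 3, and 0 of 11 had an unadjusted p under 0.05. Stromal markers were at 22.7 TPM or less in sum in every library. The part of these cells and gut regions in the values of the mucus genes was not tested.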

How the data were processed

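RNA sequencing had been performed on total RNA depleted of ribosomal RNA, 1 library per mouse. The authors deposited TPM values (transcripts normalised by length and library size) rounded to 2 decimals. The submitters' processing notes name the build mm10 and cutadapt 1.9.1, STAR 2.5.2a, RSEM 1.3.0 and DESeq2 1.12.3. TPM keeps no read number, so depth is unknown, a count test was not run, and no interval from counting is given.

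Values were transformed as log2(TPM + 1), which understates the change of low genes. Genes whose TPM averaged 1 or more over the 6 libraries (12268) were tested with limma's moderated test (limma 3.58.1 with statmod 1.5.0 under R 4.3.3; lmFit, then eBayes with the variance trend on), Mtg16-/- minus WT, without covariates, and called at a Benjamini-Hochberg adjusted p under 0.1 over all tested genes. P-values measure the spread between mice. The calculation was tested on simulated data. Positions and promoter windows were taken from RefSeq GRCm38.p6.

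The 10 genes and all lists were chosen with earlier results of these data known. The lists were other goblet cell genes, mucin glycosylation, mucin folding and early secretory pathway, granule release, transmembrane mucins, secretory lineage factors, and markers of Paneth, enterocyte, enteroendocrine, tuft, stem, immune and stromal cells and of proximal small intestine, ileum and colon. Named are the 10 genes, the 3 genes of smallest p of a list described, Atoh1, Cbfa2t3, the 3 nearest profiles of Muc2, Zg16 and Spdef among genes averaging 5 TPM or more, and genes said to be picked later; 1 gene that this rule names is not reported here. Alternatives were a pseudocount of 0.1, no filter, a filter at 5 TPM, median-ratio and quantile scaling, removal of Defa genes, no trend, robust moderation, array weights, a replicate block, an adjusted p under 0.05 and each library left out.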

Additional observations from a re-analysis of the deposited data

How the results depend on the processing

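The log2 fold changes of Zg16, Clca1, Muc2, Fcgbp, Klf4, Agr2 and Spink4 kept their sign under all alternatives. Under quantile scaling, which moved the median of all genes from -0.03 to 0.02, Tff3 was at -0.0356 and Creb3l1 at 0.0118, and under array weights Spdef was at -0.0053. With 1 library left out, the range was -0.0227 to 0.25 for Tff3, -0.12 to 0.24 for Spdef and -0.19 to 0.0727 for Creb3l1. The count of called genes, 4 in the test as reported, was 0 without a filter, without the Defa genes, without the trend and at an adjusted p under 0.05 (1789 genes had an unadjusted p under 0.05 in the test as reported). It was 1 under median-ratio or quantile scaling, 15 at a mean TPM of at least 5, 20 under robust moderation, 855 under array weights, and between 0 (without Mtg16-/- replicate 3) and 40 (without WT replicate 1) with 1 library left out. The cause was not tested. Of the 10 genes, 1 was called under array weights (Clca1, log2 fold change -0.81, limma adjusted p = 0.0793). Array weights also moved Muc2 to -0.09 and Fcgbp to -0.05. With WT replicate 1 as the only WT library, added after the data were seen, 356 genes and 1 of the 10 (Zg16) were called, Tff3 was at -0.0385, Creb3l1 at 0.24 and products minus regulators at -0.57. That library holds the most Zg16 and is an arm of 1, so a larger fold was fixed by the choice and its calls support nothing. That contrast, -0.29 as reported, was -0.0503 with medians, -0.0333 without Zg16 and Clca1, and between -0.44 and -0.15 with 1 library left out. The replicate numbers shared by the groups were fitted as a block, which called 1201 genes, 385 higher and 816 lower, and 2 of the 10 genes (Zg16, limma adjusted p = 0.0123, and Clca1, limma adjusted p = 0.0153). Between libraries of the same number, departures from the group mean correlated at 0.429, 0.0753 and 0.237. Between libraries of different numbers the correlation lay between -0.331 and 0.198. The labels do not name the numbers as pairs, so the numbers were not taken to pair the mice. As a hint from the data and not from the design, 5 of 6 libraries correlated best with their own number. Depth is unknown, and 3 mice per group limit every value.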

Other observations

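Lists not set beside the mucus genes in the report gave these values in Mtg16-/- against WT. Over all tested genes, 6.53% were higher and 8.05% lower at an unadjusted p under 0.05 in limma's test, and 9.94% were higher without overlap. All 10 stem cell markers had a higher estimate, 5 of them at an unadjusted p under 0.05 in limma's test and without overlap, with a median log2 fold change of 0.53 and none called. Their summed TPM was 981, 1536 and 1669 in WT and 1779, 2365 and 2028 in Mtg16-/-, so the groups did not overlap. Of 7 tested tuft cell markers, 1 was lower at an unadjusted p under 0.05, with a median of -0.50, and the sums were between 64.0 and 132 TPM in WT and between 52.4 and 76.3 TPM in Mtg16-/-. Of 7 ileum genes, 1 was higher at that p, with a median of 0.10 and overlapping sums, between 1444 and 2980 TPM in WT and between 1679 and 3236 TPM in Mtg16-/-.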
